A study of Hordeum vulgare with 18 samples.

Results

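A set of 39 barley genes was examined whose transcript level differed between developmental stages in control spikes but, on average, hardly differed in either of 2 lines with a silenced HvCKX1 gene. Whole spikes of Hordeum vulgare, cultivar Golden Promise, grown in field plots, were profiled by mRNA sequencing at stage 59 and at stage 49 of the BBCH scale, a code for cereal development on which 49 marks the first visible awns and 59 the end of heading. The groups were the silenced lines KD-CKX1 17_10 (line 17_10) and KD-CKX1 5.8 (line 5.8), described as independent transgenic lines, and an azygous control, that is, plants without the transgene. With 3 libraries for every genotype at either stage, which the submitters call biological replicates, there were 6 groups. The sample labels give whole spikes, while the series text speaks of grains. The sources used here do not give the construct, its promoter or how many plants a replicate holds.

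The genes were chosen by their measured values, among 18567 MLOC features of the 26066 in the table that had at least 50 normalized counts in 3 or more libraries. The stage difference was the mean of log2(normalized count + 1) at stage 59 minus that at stage 49. It had to reach 1.5 in size in the control, with no overlap between the 3 and 3 control libraries, and to stay below 0.75 in size in both lines. Of 3908 features that met the control limits, 39 met those for the lines. They are called rising (31 genes) or falling (8 genes) after the sign of the control difference. Since the stage differences chose the genes, those of the 3 genotypes and their contrasts are given here as descriptions.

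HvCKX1 encodes a cytokinin oxidase/dehydrogenase. Such enzymes degrade cytokinins, hormones that promote cell division, delay senescence and take part in setting the number of grains in cereal spikes. Between the first visible awns and the end of heading, the spike leaves the sheath of the flag leaf while its florets mature towards flowering. None of the 39 identifiers matched the reference table of 58438 barley genes, and the deposited table gives no gene names. The genes therefore go by their identifiers here, with no function or sequence, HvCKX1 itself could not be looked up as a check of the labels, and no markers of the spike or of its cell types could be examined.

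Recovered depths ran from 24459652 to 106034579 reads per library. Libraries differed in how far they stood from the others of their group. The SD across genes of that deviation was 0.36 (log2) in the closest library, replicate 3 of line 17_10 at stage 49, and 1.23 in the most distant, replicate 2 of line 5.8 at stage 49. At stage 59 it was highest in replicate 1 of line 5.8 (0.89) and replicate 2 of line 17_10 (0.83), and in the control in replicate 2 of stage 49 (0.86). These libraries bear on several values below. In whole spikes, fewer cells of a type and less RNA per cell cannot be told apart.

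The 31 rising genes had a median stage difference of 0.22 in line 17_10, 0.13 in line 5.8 and 1.89 in the control (log2). The range was -0.72 to 0.65 in line 17_10, -0.73 to 0.72 in line 5.8 and 1.51 to 4.81 in the control. The sign was that of the control in 25 of 31 rising genes in line 17_10 and in 17 of 31 in line 5.8. The 8 falling genes had medians of -0.20 in line 17_10, -0.08 in line 5.8 and -1.68 in the control, and 5 of 8 had the control's sign in each line. The limits were passed narrowly by some genes. The smallest control differences inside the limit were 1.509 and 1.517 and the largest outside it 1.499 and 1.496, while the largest line differences inside were 0.745 and 0.727 and the smallest outside 0.752 and 0.764.

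**Figure D1:**
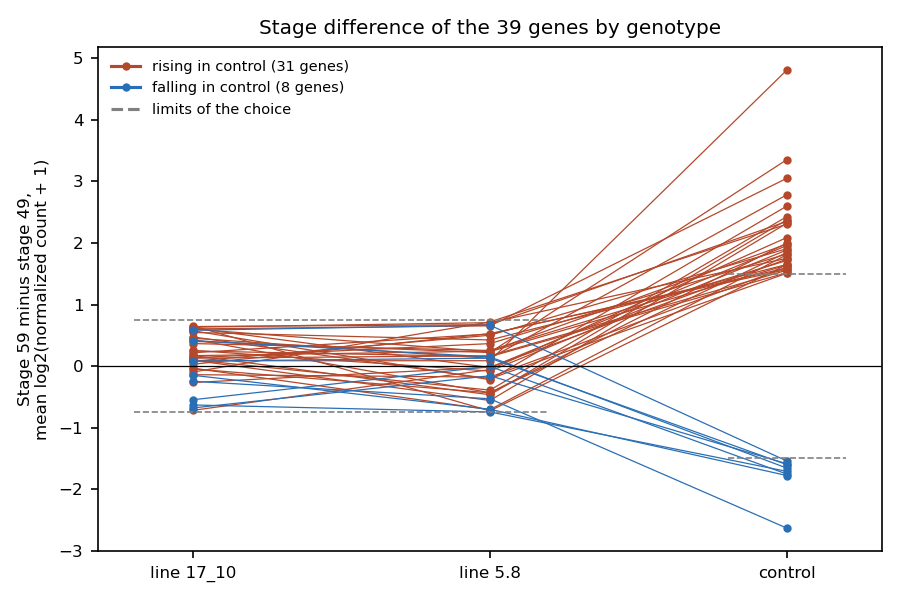
Stage difference (mean log2(normalized count + 1) at stage 59 minus stage 49, y axis) of each of the 39 genes in line 17_10, line 5.8 and the control, 1 connected line per gene, with the limits used to choose the genes dashed. Control values lie between 1.51 and 4.81 for rising genes and between -2.63 and -1.54 for falling genes; line values lie within 0.75 of 0 by choice.

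The same limits were applied with another genotype in the control's place. A stage difference present in line 17_10 and missing from line 5.8 and the control was found in 17 features, 0.43% of the 3957 that met the size and overlap limits in line 17_10. One present in line 5.8 alone was found in 102, 2.53% of 4026. The 39 genes of the control were 0.998% of 3908, so the control lay between the lines in this count. In the opposite arrangement, 11 features differed between stages in the other genotypes and not in line 17_10, 107 not in line 5.8 and 72 not in the control. Of the 3908 features, 2957 had a stage difference of the control's sign and at least 1.5 in size in both lines.

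By limma over all 20874 features tested, 22 of the 39 genes passed an adjusted p below 0.05 for stage in the control, where 45% of all features did. edgeR called 21 (45.3% of all features) and DESeq2 33 (49.2%) in the control. In line 17_10 limma called 0 of 39, against 45.3% of all features, and 1 passed an unadjusted p below 0.05, against 52.3%. edgeR and DESeq2 also called 0 there, against 45.1% and 49% of all features. In line 5.8 limma, edgeR and DESeq2 each called 1 gene, MLOC_77438, against 50.5%, 50.7% and 53.7% of all features. The 3 and 3 libraries of the stages did not overlap in 3 of 39 genes in line 17_10 (63.4% of all features) and in 3 in line 5.8 (51.3%). The rule used these contrasts and those that follow, so nothing is read from the counts. For the difference in stage change between a line and the control, limma called 0 of 39 genes in line 17_10 (13 at an unadjusted p below 0.05) and 0 of 39 in line 5.8 (15 at an unadjusted p below 0.05). edgeR also called 0 in both lines. DESeq2 called 0 in line 17_10, with 0.0719% of all features, and 2 in line 5.8, MLOC_58639 and MLOC_23856, with 0.287% of all features. Over all features limma and edgeR called 0%, with an unadjusted limma p below 0.05 in 529 features for line 17_10 and in 2362 for line 5.8.

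The 39 genes were expressed at low to moderate levels. Their median over genes of the mean normalized count was 154, against 1064 over all 18567 features, and 14 of 39 had a mean below 100, against 11.4% of all. The means ran from 21.2 to 2209 normalized counts, and 3 genes had 0 reads in at least 1 library. Of the 39 genes, 31 reached 50 counts in 3 or more control libraries, while the other 8 met the count minimum only with the help of line libraries.

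At stage 59, replicates of the lines differed widely in these genes. There the median SD over genes was 0.93 in line 17_10, 1.09 in line 5.8 and 0.45 in the control (log2, n = 3 libraries each), against 0.20 in line 17_10, 0.27 in line 5.8 and 0.16 in the control over all 18567 features. Among the 3741 features with a mean below 200 normalized counts, a level that 24 of the 39 genes shared, the medians were 0.46 in line 17_10, 0.53 in line 5.8 and 0.36 in the control. At stage 49 the medians for the 39 genes were 0.30 in line 17_10, 0.71 in line 5.8 and 0.55 in the control, against 0.34 in line 17_10, 0.62 in line 5.8 and 0.50 in the control for the features with a mean below 200. The choice of genes limited spread in the control only through the limit on overlap, which left out 7 features that met the other limits. It set no limit on spread in the lines. A line difference kept small by 1 divergent library also met the limits, so the spread in the lines is not independent of the choice. Across its 6 libraries, line 17_10 spanned at least the whole control difference in 22 of 39 genes, and line 5.8 did in 27. The same was not counted over other features, so nothing is read from these counts.

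The stage 59 libraries of the lines differed in how often they reached the control's stage 59 levels in rising genes. Replicate 1 of line 5.8 did so in a larger share of them than of all features with a rising control difference inside the limits. Every other line library did so in a smaller share. Replicate 1 of line 5.8 at stage 59 lay at or above the lowest stage 59 control library in 28 of 31 rising genes, replicate 2 in 8 and replicate 3 in 5. Of all 1849 features with a rising control difference inside the limits, 70.7% did so in replicate 1, 49.7% in replicate 2 and 40.3% in replicate 3. In line 17_10, replicate 1 did so in 9 of the 31 genes, replicate 2 in 4 and replicate 3 in 16, against 64.0%, 31.9% and 58.1% of the 1849 features in replicates 1, 2 and 3. Median levels over the 31 genes were 98.3, 39.04 and 118 normalized counts in line 17_10 at stage 59, replicates 1 to 3. In line 5.8 they were 255, 84.7 and 59.1, and in the control 158, 211 and 189. Replicate 1 of line 5.8 was thus above all control libraries in this median, and the other line libraries at stage 59 were below them. In line 5.8, 20 rising genes had 1 and 3 had 2 of the 3 stage 59 libraries at or above the lowest control library. In these genes the small mean difference joined libraries below that control level with libraries at or above it. The choice of small line differences bears on these counts, and the same was not counted over the 1849 features. In some genes replicate 1 of line 5.8 lay above all 3 control libraries of stage 59. At stage 49 the medians were 73.3, 59.1 and 73.7 in line 17_10, 85.9, 124 and 82.8 in line 5.8, and 40.2, 69.0 and 33.9 in the control.

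In many rising genes the same library was the highest or the lowest of its group. Replicate 1 was the highest of the 3 stage 59 libraries of line 5.8 in 28 of 31 genes. It was so in 38.6% of all 18567 features and in 56.5% of all features with a rising control difference inside the limits. Replicate 2 was the lowest of the 3 in line 17_10 at stage 59 in 26 of 31 genes, against 39.2% of all features and 68.4% of those with a rising control difference inside the limits. Of the 31 genes, 17 had at least 1 stage 59 library of each line at or above the lowest control library, against 72.0% of the 1849 features. The choice of small line differences bears on this count. In 1 rising gene, MLOC_62785, all 6 line libraries at stage 59 were below the 3 control libraries, which was so in 6.003% of the 1849 features. It was singled out after its values were seen. MLOC_62785 had 53.6, 16.4 and 70.4 normalized counts in line 17_10 and 83.80, 24.2 and 27.7 in line 5.8 at stage 59, against 83.84, 159 and 200.1 in the control, so replicate 1 of line 5.8 lay just below the lowest control library.

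**Figure D2:**
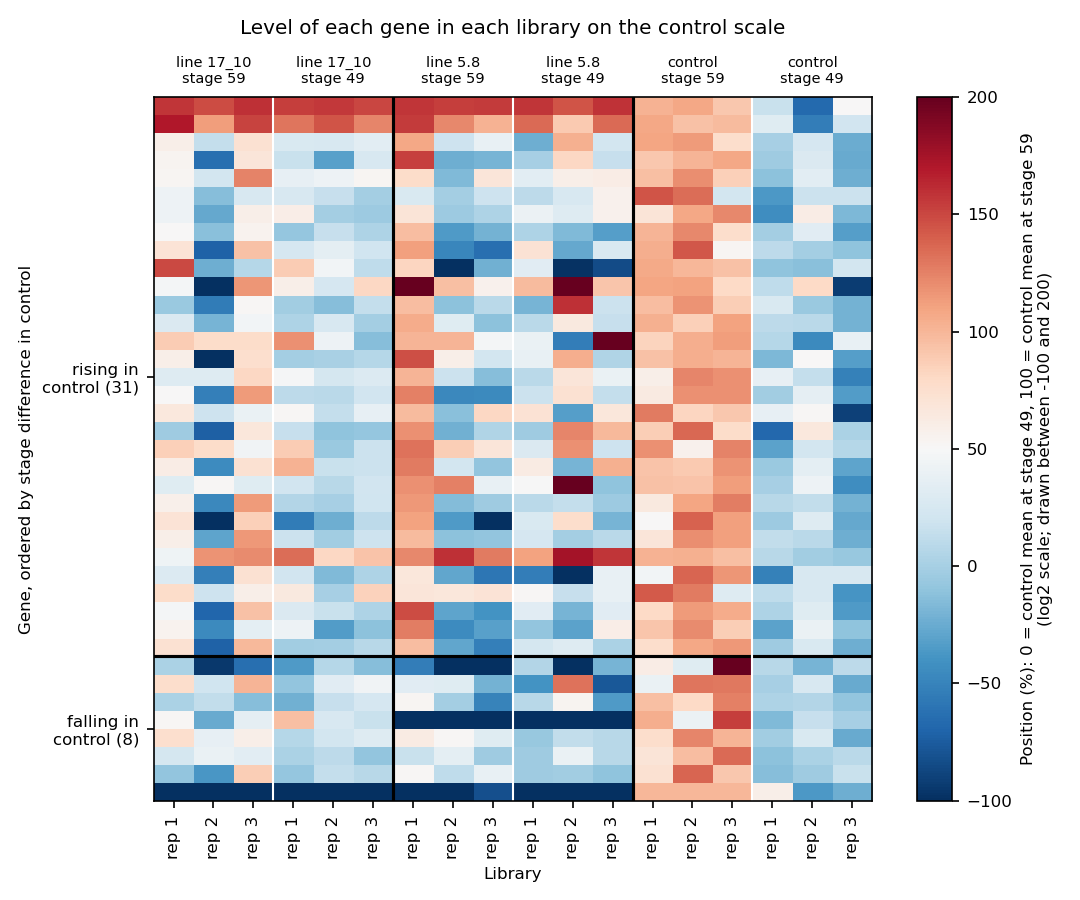
Level of each of the 39 genes (rows, ordered by control stage difference) in each of the 18 libraries (columns) on the log2 scale, placed so that 0% is the control mean at stage 49 and 100% the control mean at stage 59; the colour scale is cut at both ends. In the rising block, replicate 1 of line 5.8 at stage 59 is at or above the lowest stage 59 control library in 28 of 31 rows. This was so in 70.7% of all features with a rising control difference inside the limits. Replicate 2 of line 17_10 at stage 59 is the lowest of its group in 26 rows.

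In the falling genes fewer line libraries at stage 59 reached the control's range. Replicates 1, 2 and 3 of line 17_10 lay at or below the highest stage 59 control library in 2, 0 and 2 of 8 genes. Of all 2059 features with a falling control difference inside the limits, 85.0%, 48.0% and 78.2% did so. Each replicate of line 5.8 did so in 0 of 8 genes, against 52.5%, 57.0% and 47.5% of those features. All 3 line 5.8 libraries were above all 3 control libraries at stage 59 in 8 of 8 genes, where 8.29% of all features tested lay higher without overlap. In line 17_10 this was so in 5 of 8 genes, with 8.07% of all features. The choice of genes used stage 59 values of all 3 genotypes, so these counts are no independent result. In the rising genes, no overlap with lower values at stage 59 was found in 12 of 31 genes in line 17_10 (9.1% of all features) and in 3 of 31 in line 5.8 (8.15%). The median difference from the control at stage 59 was -1.22 in line 17_10 and -1.23 in line 5.8 for rising genes, and 1.42 and 1.53 for falling genes (log2, over all 31 and all 8 genes). At stage 49 the medians were 0.34 in line 17_10 and 0.75 in line 5.8 for rising genes, and -0.09 and 0.01 for falling genes. Both lines were set against the same control libraries.

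Each line's mean level over both stages was placed on a scale from the control's stage 49 mean (0%) to its stage 59 mean (100%). For rising genes the median position was 28.0% in line 17_10 and 37.0% in line 5.8, and for falling genes it was 13.1% and 7.32%. Both lines lay nearer the control's stage 49 level in 20 rising and all 8 falling genes, and nearer its stage 59 level in 6 rising genes. These counts changed by over 1.5 times when the set was chosen again without some libraries. Of rising genes nearer stage 49 there were 35, 6 and 43 without replicate 1, 2 and 3 of line 17_10 at stage 59, 13 without replicate 2 of the control at stage 59 and 12 without its replicate 3 at stage 49. Of falling genes nearer stage 49 there were 13 without replicate 1 or 3 of line 17_10 at stage 59, 5 without replicate 2 of line 5.8 at stage 49, and 16 and 4 without replicate 1 and 3 of the control at stage 59. Of rising genes nearer stage 59 there were 3 and 11 without replicate 1 and 2 of line 17_10 at stage 49 and 19 without replicate 2 of the control at stage 49. With all libraries, the lines in the other 5 rising genes lay on different sides of the midpoint. In 11 genes at least 1 line was within 10 percentage points of that midpoint. The line mean was outside the range between the control means in 7 genes in line 17_10 and in 10 in line 5.8. The classes include such genes, so nearer a control level can mean far beyond it. MLOC_36262, a falling gene nearer stage 49, lay at -121.5% in line 17_10 and -121.6% in line 5.8. MLOC_58639, a rising gene nearer stage 59, lay at 154% in both lines.

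**Figure D3:**
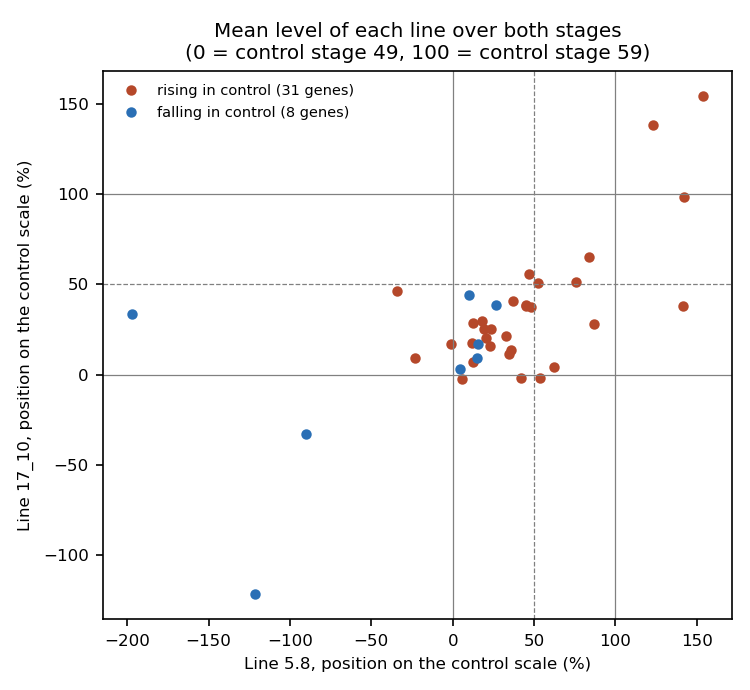
Mean level of line 5.8 (x axis) and line 17_10 (y axis) over both stages for each of the 39 genes, on a percent scale where 0 is the control mean at stage 49 and 100 that at stage 59 (log2 values); the dashed lines mark the midpoint. In 20 of 39 genes both lines lie between 0 and 50%, and 6 rising genes lie beyond the midpoint in both lines.

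The difference between genotypes averaged over both stages is not fixed by the stage differences that chose the genes, and was therefore tested. The separation is exact only where groups spread equally, and the spreads of these genes were unequal: lower at stage 49 than at stage 59 in both lines, and higher at stage 49 in the control. Averaged over both stages, 3 of the 39 genes were higher in line 17_10 than in the control (limma, 0.168% of all 20874 features called higher) and 5 were higher in line 5.8 (0.537%). They were MLOC_58639, MLOC_44678 and MLOC_36262 in both lines, and MLOC_64735 and MLOC_2407 in line 5.8. edgeR also called 3 in line 17_10 and 5 in line 5.8, with 0.168% and 0.479% of all features, and DESeq2 called 3 and 7, with 0.378% and 2.37%. Limma called 0 of 39 lower in line 17_10 (0.12% of all features called lower) and 0 in line 5.8 (0.321%). At an unadjusted limma p below 0.05, 0 of 39 were lower in line 17_10, against 2.57% of all features. In line 5.8 there were 3, against 9.20%. Neither edgeR nor DESeq2 called any of the 39 lower, with 0.11% and 0.441% of all features called lower in line 17_10 and 0.297% and 1.95% in line 5.8. Without replicate 1 of line 5.8 at stage 59, limma called 9 genes in line 5.8, 7 higher and 2 lower, while the calls over all features numbered 2674. Both comparisons used the same control libraries. Of the 5 genes that limma called with all libraries, MLOC_36262 and MLOC_2407 reached 50 counts in 0 control libraries, so they entered the set through line libraries and a difference from the control was built in.

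MLOC_58639 was the rising gene with the largest control difference. At stage 59 it had 1781, 1281 and 1926 normalized counts in line 17_10 and 1737, 1534 and 1618 in line 5.8, against 274, 338 and 189 in the control. At stage 49 the counts were 1543, 1678 and 1416 in line 17_10 and 1756, 1135 and 1804 in line 5.8, against 14.9, 0 and 49.6 in the control. Every line library was thus above every control library at both stages, with little difference between stages in the lines. Averaged over both stages, the level was 1604 ± 238 in line 17_10 and 1597 ± 247 in line 5.8, against 144 ± 143 in the control (SD, n = 6). The control SD includes its stage difference, with 267 ± 74.7 at stage 59 and 21.5 ± 25.4 at stage 49 (SD, n = 3). The log2 difference from the control was 5.01 in line 17_10 (SE 0.64, limma adjusted p = 0.00066) and 5.004 in line 5.8 (SE 0.64, limma adjusted p = 0.00047). Without replicate 2 of the control at stage 49, which had 0 reads, the difference was 4.21 in line 17_10 and 4.20 in line 5.8, and without its replicate 3 it was 5.62 in both lines. The lines differed from each other by 0.01 (SE 0.64, limma adjusted p = 0.996).

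MLOC_44678 showed the same arrangement at a lower level. At stage 59 it had 601, 158 and 386 normalized counts in line 17_10 and 420.4, 197 and 122 in line 5.8, against 143, 102 and 110.4 in the control. At stage 49 it had 236, 332 and 202 in line 17_10 and 268, 90.1 and 265 in line 5.8, against 23.1, 2.35 and 18.1 in the control. The groups overlapped at stage 59 in line 5.8 alone, and at stage 49 neither line overlapped the control. The difference over both stages was 2.97 in line 17_10 (SE 0.50, limma adjusted p = 0.012) and 2.44 in line 5.8 (SE 0.50, limma adjusted p = 0.029). In line 5.8 the call was lost in 6 of 18 fits that left out 1 library, with an adjusted p of up to 0.089, namely without replicate 2 at stage 59 or replicate 1 or 3 at stage 49 of line 5.8, or without any of the 3 control libraries of stage 59.

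MLOC_64735 was called in line 5.8, and was named after its values were seen. It had 216, 327 and 230.2 normalized counts in line 5.8 at stage 59 and 189, 389.7 and 320.0 at stage 49. The control had 172, 174 and 159 at stage 59 and 60.1, 53.3 and 50.8 at stage 49. All 6 libraries of line 5.8 were above all 6 of the control. The log2 difference was 1.48 (SE 0.25, limma adjusted p = 0.0061), and it held in all 18 fits without 1 library. In line 17_10 the counts were 89.4, 203 and 214 at stage 59 and 246, 137 and 155 at stage 49, with a log2 difference of 0.78 from the control (SE 0.25, limma adjusted p = 0.60).

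MLOC_9995 was the rising gene with the largest control difference among the rest of those in which both lines lay nearer the control's stage 59 level. It had 847, 738 and 733 normalized counts at stage 59 and 1283, 459.6 and 213 at stage 49 in line 17_10. In line 5.8 it had 1019, 1013 and 484 at stage 59 and 439.6, 124 and 9596 at stage 49, against 801, 1054 and 1178 at stage 59 and 281, 138 and 433 at stage 49 in the control. One library, replicate 3 of line 5.8 at stage 49, was thus far above all others, and the stage difference of -0.02 in line 5.8 includes it.

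**Figure D4:**
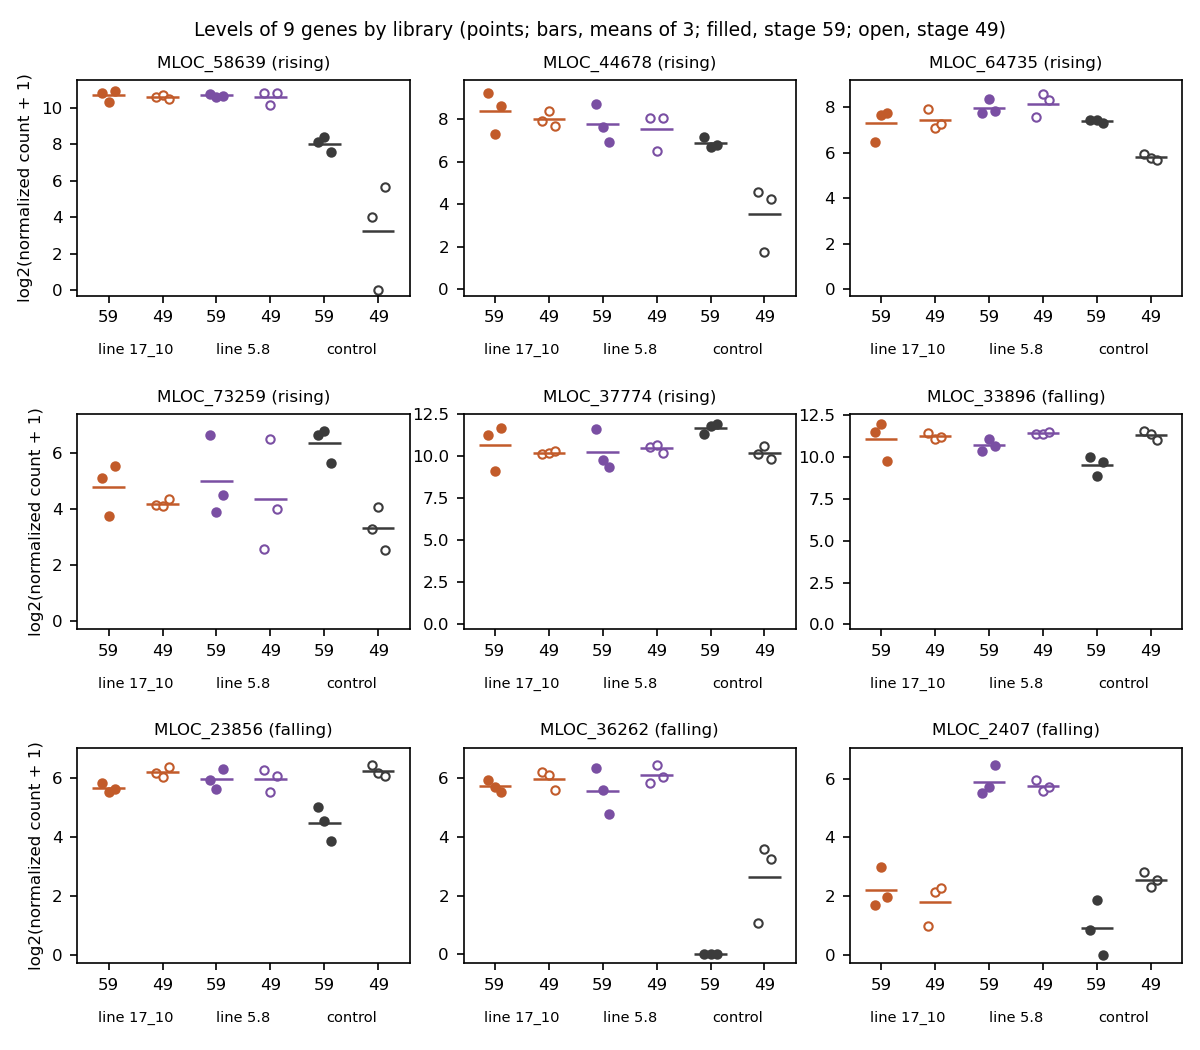
Levels (log2(normalized count + 1), y axis) of 9 of the genes in each library of line 17_10, line 5.8 and the control, at stage 59 (filled) and stage 49 (open), with bars at the mean of 3 libraries. MLOC_58639 is high in all 12 line libraries, MLOC_37774 has stage 59 line replicates both above and below those of stage 49, and MLOC_2407 is high in line 5.8 alone.

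Among rising genes in which both lines lay nearer the control's stage 49 level, MLOC_73259 had the largest control difference (3.05). It had 33.5, 12.3 and 44.5 normalized counts at stage 59 in line 17_10 and 96.6, 13.8 and 21.4 in line 5.8, against 98.4, 109 and 48.9 in the control. Its stage 49 counts were 16.4, 16.1 and 19.1 in line 17_10 and 4.98, 87.5 and 14.7 in line 5.8, against 8.82, 15.7 and 4.84 in the control. The stage 59 values in line 17_10 were below all control values of that stage, while those of line 5.8 included 1 library at the control's level. MLOC_37774 was the rising gene with the highest mean. It had 2498, 551 and 3278 at stage 59 and 1147, 1156 and 1271 at stage 49 in line 17_10. In line 5.8 it had 3178, 873 and 673 at stage 59 and 1494, 1608 and 1193 at stage 49, and in the control 2597, 3607 and 3909.6 at stage 59 and 1124, 1548 and 913 at stage 49. In line 17_10, 2 of 3 stage 59 libraries were thus well above its stage 49 libraries and 1 was below them, and in line 5.8 1 was above and 2 below. Its difference from the control over both stages was -0.49 in line 17_10 and -0.57 in line 5.8 (SE 0.41 each), with a limma adjusted p of 1.0 in line 17_10 and 0.46 in line 5.8.

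MLOC_77763 was 1 of 3 genes, with MLOC_58639 and MLOC_64735, that met the limits in all 18 repeats without 1 library. It was named after its values were seen. It had 87.1, 33.6 and 66.1 normalized counts at stage 59 in line 17_10 and 67.6, 41.5 and 59.1 in line 5.8, against 492, 408 and 62.5 in the control. At stage 49 the counts were 66.5, 55.8 and 42.1 in line 17_10, 51.1, 66.3 and 112 in line 5.8, and 22.6, 57.99 and 58.04 in the control. The control's stage difference in this gene came from 2 of its 3 stage 59 libraries, the third lying among the line libraries.

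Among falling genes, MLOC_36262 had the largest control difference. It had 60.3, 49.99 and 44.5 normalized counts at stage 59 in line 17_10 and 80.4, 46.7 and 26.4 in line 5.8, against 0 reads in all 3 control libraries. At stage 49 it had 72.3, 66.7 and 46.9 in line 17_10 and 56.0, 84.8 and 64.6 in line 5.8, against 1.10, 11.0 and 8.46 in the control. The control difference thus rested on 23 reads in all at stage 49, and every line library was above every control library at both stages. At stage 59 it was at least 17.2-fold higher in line 17_10 and at least 17.1-fold higher in line 5.8, against a floor of 3 reads per control library. Over both stages the log2 difference was 4.51 in line 17_10 and 4.52 in line 5.8 (SE 0.39 each). The gene met the count minimum only through line libraries, so this difference was built in and its calls are no evidence about it.

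MLOC_33896 and MLOC_23856 followed in size of the control difference. MLOC_33896 had 2811, 3958 and 863 normalized counts at stage 59 in line 17_10 and 1317, 2154 and 1558 in line 5.8, against 1026, 464 and 819 in the control. The stage 49 counts were 2774, 2090.2 and 2260.3 in line 17_10 and 2602, 2569.6 and 2847 in line 5.8, against 2962, 2607 and 2043 in the control, so the genotypes overlapped at stage 49. In line 5.8 its stage libraries did not overlap, with a stage difference of -0.70 just inside the limit. MLOC_23856 had 55.9, 45.2 and 48.8 at stage 59 in line 17_10 and 60.8, 48.4 and 78.0 in line 5.8, against 31.5, 22.5 and 13.6 in the control. At stage 49 the gene had 72.3, 65.1 and 83.2 in line 17_10 and 77.2, 45.1 and 66.7 in line 5.8, against 86.0, 72.1 and 66.5 in the control. The lines lay above the control at stage 59 and among its libraries at stage 49 or below them. Over both stages the difference of MLOC_23856 from the control was 0.58 in line 17_10 and 0.60 in line 5.8 (SE 0.23 each), with a limma adjusted p of 0.96 in line 17_10 and 0.19 in line 5.8.

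MLOC_1579 was the most abundant of the falling genes. It had 1119, 3199 and 2261 normalized counts at stage 59 in line 17_10 and 2044, 4719.9 and 5779 in line 5.8, against 601, 818 and 126 in the control. At stage 49 there were 1689, 1069 and 1335 in line 17_10 and 1087, 8968 and 1433 in line 5.8, against 1051, 1429 and 1027 in the control. All line libraries at stage 59 were above the control's, and at stage 49 the genotypes overlapped apart from single high libraries. The difference over both stages was 1.28 in line 17_10 and 2.16 in line 5.8 (SE 0.53 each), with a limma adjusted p of 1.0 in line 17_10 and 0.082 in line 5.8, where DESeq2 gave 0.00031.

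The lines were also compared with each other over both stages. A single gene of 39, MLOC_2407, was called between line 17_10 and line 5.8 (limma, 0.829% of all features called). It had 2.23, 6.85 and 2.87 normalized counts in line 17_10 at stage 59 and 44.6, 51.9 and 86.8 in line 5.8, with 0.769, 2.65 and 0 in the control. At stage 49 it had 0.964, 3.38 and 3.83 in line 17_10 and 61.0, 46.8 and 51.2 in line 5.8, with 6.06, 3.92 and 4.84 in the control. The log2 difference of line 17_10 from line 5.8 was -3.82 (SE 0.38), and that of line 5.8 from the control was 4.10 (SE 0.38). Line 17_10 and the control each had at most 11 reads of this gene in a library, so its control difference was one of a few reads. The gene met the count minimum only through line 5.8, so its differences from line 17_10 and from the control were both built in, and the calls are no evidence about them. edgeR on recovered reads called the same 1 gene (0.719% of all features). DESeq2 called 3 of 39, all lower in line 17_10 (4.79% of all features), with MLOC_55820 and MLOC_15276 beside MLOC_2407.

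The other 23 rising and 3 falling genes had no limma call in these comparisons (lowest adjusted p 0.189). At an unadjusted p below 0.05 there was 1 such gene in line 17_10 against the control, 5 in line 5.8 against the control and 2 between the lines, where 4.22%, 18.7% and 17.6% of all features passed. edgeR called 0 of them. It called 0.168% of all features higher and 0.11% lower in line 17_10, 0.479% and 0.297% in line 5.8, and 0.719% between the lines. DESeq2 called 0, 1 and 2 of these genes in those comparisons. Of all features it called 0.378% higher and 0.441% lower in line 17_10, 2.37% and 1.95% in line 5.8, and 4.79% between the lines. The 23 rising genes had control stage differences of 1.52 to 2.78 and means of 23.0 to 1555 normalized counts, and the 3 falling genes had -1.71 to -1.59 and 237 to 400.2. Their difference over both stages lay between -1.06 and 0.75 in line 17_10 against the control, and between -1.94 and 1.92 in line 5.8 against the control (log2).

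At single stages the difference from the control is bound up with the stage differences that chose the genes, and the calls are given as a description. For line 17_10 limma called 1 of 39 genes at stage 59 (0.206% of all features) and 3 at stage 49 (0.211%). For line 5.8 it called 2 at stage 59 (0.321%) and 5 at stage 49 (0.431%). All of these calls fell on the 5 genes named for the test over both stages, and all were higher in the line. The calls at stage 59 were on the falling genes MLOC_36262 and MLOC_2407 alone, which were also among those called at stage 49. Their differences from the control were built in by the count minimum, so their calls are no evidence about them.

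The make-up of the set depended on single libraries. Without replicate 2 of line 17_10 at stage 59, 24 genes met the limits, 22 of them among the 39. Without replicate 1 or 3 of the same group, 66 and 74 genes did, with 35 and 36 of the 39. Without replicate 2 of the control at stage 49 the number was 81, with 38 of the 39. Without replicate 1 of line 5.8 at stage 59, the library in which most rising genes reached the control's range, 36 genes met the limits, 27 of them among the 39. Over all 18 omissions, 3 of the 39 genes met the limits every time, all of them rising, and the least stable genes did so in 11 of 18.

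**Figure D5:**
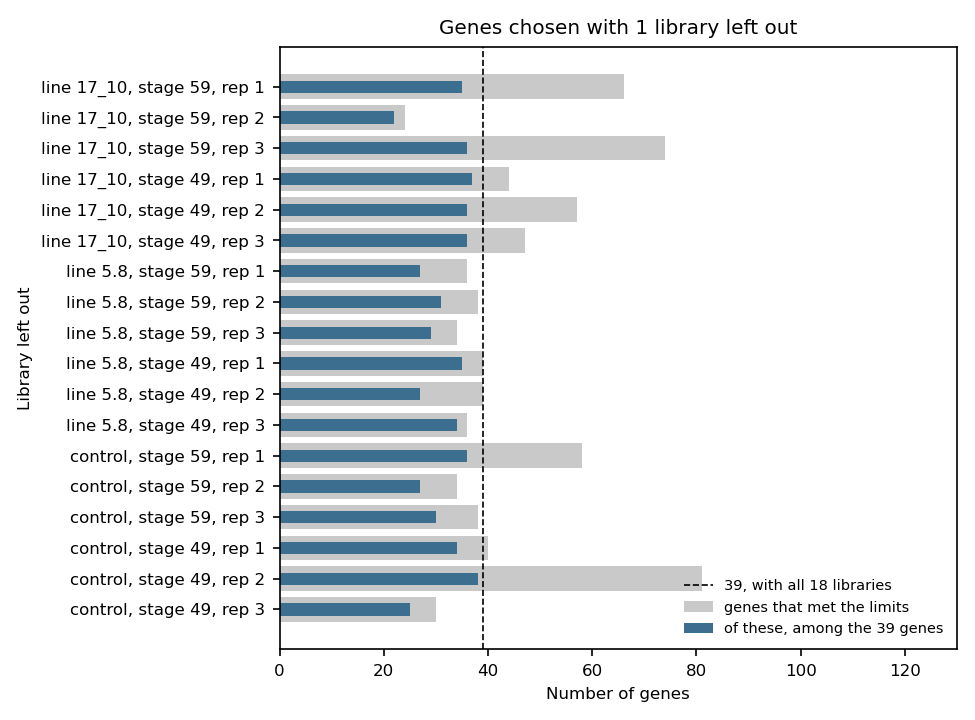
Number of genes that met the limits when 1 library was left out (grey bars, with the omitted library on the y axis) and how many of them were among the 39 (blue bars); the dashed line marks 39. The number ran from 24 without replicate 2 of line 17_10 at stage 59 to 81 without replicate 2 of the control at stage 49.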

How the data were processed

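The table deposited by the authors holds 1 signal value per feature and library: gene counts scaled by DESeq size factors, per the labels and the values. Tools named in the submitters' processing notes are Subread 1.5.2, DESeq2 and STAR 2.4.2a, without their roles. The genome build, annotation, strand setting and treatment of reads shared by near-identical genes were not given in the sources used here. Each of 18 libraries was made from 3 µg of total RNA with a stranded mRNA kit, per the labels' protocols.

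Dividing each column by its lowest value above 0 gave whole reads for 100% of values (tolerance 0.001). Features with at least 10 normalized counts in 3 or more libraries (20874) entered 1 limma fit (limma 3.58.1, R 4.3.3) of log2(value + 1) on 6 group means with a mean-variance trend. This scale understates changes of low genes. Tests were two-sided, with Benjamini-Hochberg adjustment across all features tested. edgeR 4.0.16 (quasi-likelihood) and DESeq2 1.42.0 were run on the recovered reads as alternatives. SDs are over libraries. The limma p-values weigh a difference against a spread between libraries that is estimated over all 6 groups together. They refer to these libraries, since the labels do not say which plants a library came from.

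The genes, limits and tests were chosen with earlier results of these data known. Genes described one by one are the 2 rising and 2 falling genes with the largest control difference, the next largest in each class of direction and nearest control stage, up to 2 higher and 2 lower called genes per tested comparison (a mean of 50 or more in the higher genotype and no overlap of the 6 and 6 libraries), and the most abundant gene of each direction. Genes named outside this rule are marked or are named as calls. Libraries with the same replicate number deviated together in 1 of 15 pairs of groups (every correlation over 0.1), so the fit has no block.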

Additional observations from a re-analysis of the deposited data

How the results depend on the processing

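The number of genes meeting the limits followed those limits. It was 66 with a minimum of 10 counts, 18 and 92 with a line limit of 0.5 and 1, and 144 and 13 with a control limit of 1 and 2. With log2(value + 5) it was 39 (34 shared) and with TMM scaling 40 (39 shared). Without 1 library it ran from 24 to 81. The rising genes with both lines nearer the control's stage 49 level then numbered 6 to 43, and those nearer its stage 59 level 3 to 19. Falling genes with both lines nearer stage 49 numbered 4 to 16, and those nearer stage 59 numbered 0 to 4. Genes called over both stages numbered 3 to 4 for line 17_10 against the control and 4 to 9 for line 5.8 against the control (9 without replicate 1 of line 5.8 at stage 59). For line 17_10 against line 5.8 there was 1 in every omission. The calls over all features meanwhile ran from 49 to 115, from 101 to 2674 and from 105 to 1945 in these comparisons. With all libraries, DESeq2 called 3 of the 39 between the lines (4.79% of all features). With a replicate block the counts were 3 for line 17_10 against the control, 5 for line 5.8 against the control and 1 between the lines, as without it. Over all features that fit called 55, 158 and 152. Shared replicate numbers showed pairing in 1 of 15 pairs of groups, line 5.8 and the control at stage 49, and in 0 of 15 did every library correlate best with its own number. Both differences of MLOC_58639 from the control kept their sign and their call under every alternative run. Those of MLOC_36262 and MLOC_2407 were built in by the count minimum, and their control libraries held few reads, so their calls say nothing about stability.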
